A study of Mus musculus with 18 samples.

Results

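The guanylate-binding proteins (GBPs) were examined through 9 transcripts, Gbp2, Gbp3, Gbp4, Gbp5, Gbp6, Gbp7, Gbp8, Gbp9 and Gbp10, which were taken by gene symbol from the 23420 genes listed in each of 18 libraries. The libraries came from splenic B cells that were purified with beads from MRL/lpr mice aged 5 to 7 weeks, a lupus-prone strain whose Fas gene carries the lpr mutation. There were 6 groups with 3 libraries each. Every mouse of the CpG experiment was female and Tlr7-/-, and carried either a single functional Tlr9 copy (Tlr9+/- Tlr7-/-, named Tlr9het below) or Tlr997 (Tlr997 Tlr7-/-), an allele that joins TLR9 to the signaling TIR domain of TLR7 in place of its own. Cells of each genotype were cultured for 4 h without stimulus or with 10 µg/ml of CpG, a DNA agonist of TLR9. In the CL097 experiment all mice were male and Tlr9-/- and carried Tlr779 (Tlr779 Tlr9-/-), a TLR7 with the TIR domain of TLR9, and their cells were cultured for 4 h without stimulus or with 5 µg/ml of CL097, an agonist of TLR7. Both alleles are present in every cell of the animal, so the purified cells were exposed to any effect of the allele in other cells before culture. The Tlr9het group is Tlr9+/- in the sample descriptions and in the study's results but Tlr9-/- in the treatment protocol, and the descriptions were followed.

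GBPs are large GTPases that interferon, above all interferon gamma, induces in many cell types. They assemble on vacuoles that hold bacteria or protozoa and on bacterial surfaces, help to break these open, and promote caspase-dependent inflammasome responses. Several members are anchored in membranes by a prenyl group added at their C terminus.

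The mouse family lies in 2 clusters. On the GRCm38 build (the assembly behind mm10), the plus strand of chromosome 3 carries 4 members within 141 kb, in the order Gbp5 (chr3:142496934-142522344), Gbp7 (chr3:142530336-142550151), Gbp3 (chr3:142560016-142573213) and Gbp2 (chr3:142620663-142638008). The minus strand of chromosome 5 carries 5 members within 283 kb, which are Gbp8 (chr5:105012513-105053609), Gbp9 (chr5:105076464-105110357), Gbp4 (chr5:105115767-105139586), Gbp10 (chr5:105215699-105239533) and Gbp6 (chr5:105270702-105295871). Coding sequences were more alike within a cluster, with a median identity of 78.6% over 16 pairs, than between the clusters, with a median of 65.2% over 20 pairs. The most alike pair was Gbp6 and Gbp10, with 98.4% identity. Of all 75-base stretches of the transcript, the length of 1 read of a pair, 86.0% for Gbp6 and 75.5% for Gbp10 were also found in transcripts of other genes, mainly of each other and of the overlapping gene model Gm43302. For the other 7 members this share was between 0.1% for Gbp5 and 11.4% for Gbp7. In the GENCODE annotation of the same build, gene models of Gbp8, Gbp9 and Gbp4 also overlap on the same strand, although the positions given above do not. How the authors' counting assigned reads that match several genes is not given in the sources used here, so the values of Gbp6 and Gbp10 in particular are uncertain in how they divide between these genes.

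Promoter sequences from RefSeq (GRCm38.p6) were available for 4 members, all of the chromosome 3 cluster, and are shown because the 3 members there with the largest responses, Gbp5, Gbp7 and Gbp2, can be set beside Gbp3, which changed less. Each window holds the 250 bases before an annotated transcript start, 5′ to 3′ on the plus strand. Capitals mark matches to 3 motifs searched on both strands, the gamma-activated site TTCNNNGAA (GAS), the core of the interferon-stimulated response element, GAAANNGAAA or its complement TTTCNNTTTC (ISRE core), and the kappaB consensus. Gbp4, Gbp6, Gbp8, Gbp9 and Gbp10 were not matched in the promoter table. The windows were Gbp5 at chr3:142496684-142496933, Gbp7 at chr3:142530086-142530335, Gbp3 at chr3:142559794-142560043 and Gbp2 at chr3:142620413-142620662.
Gbp5: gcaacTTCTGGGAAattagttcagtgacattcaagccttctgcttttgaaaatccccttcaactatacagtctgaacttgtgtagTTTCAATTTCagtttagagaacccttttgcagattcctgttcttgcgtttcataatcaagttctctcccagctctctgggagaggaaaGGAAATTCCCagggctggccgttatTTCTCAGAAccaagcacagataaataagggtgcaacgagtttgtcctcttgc
Gbp7: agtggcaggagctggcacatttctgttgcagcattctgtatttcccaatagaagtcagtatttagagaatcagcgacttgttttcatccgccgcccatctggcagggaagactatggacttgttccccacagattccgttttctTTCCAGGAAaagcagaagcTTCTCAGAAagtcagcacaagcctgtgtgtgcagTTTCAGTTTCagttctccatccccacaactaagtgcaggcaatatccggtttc
Gbp3: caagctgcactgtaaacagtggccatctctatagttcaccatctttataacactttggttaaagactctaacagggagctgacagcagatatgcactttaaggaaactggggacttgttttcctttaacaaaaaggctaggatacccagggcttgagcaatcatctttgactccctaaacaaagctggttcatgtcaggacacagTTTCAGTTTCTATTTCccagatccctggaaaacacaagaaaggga
Gbp2: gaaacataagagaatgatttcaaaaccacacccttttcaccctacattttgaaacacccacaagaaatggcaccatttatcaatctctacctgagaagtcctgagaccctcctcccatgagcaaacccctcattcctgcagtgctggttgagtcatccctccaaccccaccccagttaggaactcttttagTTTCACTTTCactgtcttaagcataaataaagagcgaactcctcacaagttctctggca

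Gbp5 held 2 GAS matches, beginning 245 and 52 bases before the start, 1 ISRE core match at 165 bases and 1 kappaB match at 77 bases. Gbp7 held 2 GAS matches at 106 and 87 bases and 1 ISRE core match at 53 bases. Gbp2 held 1 ISRE core match at 59 bases and no GAS match in this window. At Gbp3, 2 ISRE core matches at 45 and 39 bases overlapped, so they share bases, and a second annotated start of Gbp3 had no match to the 3 motifs in its window. Among all 32851 promoter windows of this length in the table, 7.02% held a GAS match, 2.98% an ISRE core match and 3.90% a kappaB match. A match is a stretch of letters and does not show that a factor was bound.

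**Figure D1:**
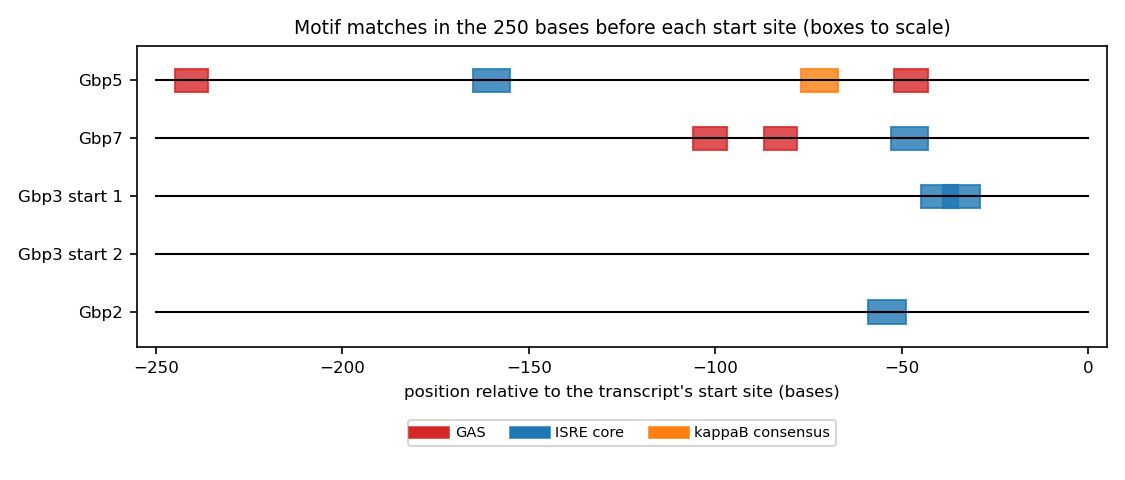
Matches to 3 motifs in the 250 bases before the annotated transcript starts of 4 members on chromosome 3, with position in bases relative to the start on the x axis and 1 line per start. All windows except that of the second Gbp3 start hold an ISRE core match, and GAS matches were found in those of Gbp5 and Gbp7.

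Values were the authors' normalized log2 CPM (read counts scaled to library size, on a log2 scale), the depth of each library is unknown, and r between replicates of a group, across genes, ran from 0.94 to 0.99. Replicate 3 of unstimulated Tlr997 gave the lowest 2 of these values, 0.94 and 0.95. The 8 markers of B cells summed to between 5994 and 7963 CPM in unstimulated libraries and to between 1992 and 3833 CPM in stimulated ones. Markers of other cell types summed to at most 474 CPM (erythroid), 454 (macrophage and monocyte), 179 (neutrophil), 97.7 (dendritic cell), 37.6 (NK cell) and 32.2 (T cell) in any library. Some of these sums moved with stimulation. Those of dendritic cell markers were 28.5 to 41.8 CPM without and 68.8 to 97.7 CPM with stimulus. Among their 4 tested genes Zbtb46 was called higher in all 3 responses, by 1.80, 1.86 and 2.22, and none was called lower. The list did not move as a whole. With CpG in Tlr9het, Flt3 went from 3.42 to 3.79 log2 CPM up to 3.89 to 4.02. Siglech went from 1.96 to 2.53 down to 1.57 to 1.95, and Ccr9 from 1.17 to 1.58 down to 0.47 to 0.83. Macrophage and monocyte markers summed to 188 to 261 CPM without and 126 to 175 CPM with CpG in Tlr9het, to 133 to 367 and 86.8 to 220 CPM in Tlr997, and to 187 to 454 and 94.7 to 190 CPM with CL097 in Tlr779. T cell markers summed to 7.04 to 14.17 CPM without and 14.58 to 32.19 CPM with CpG in Tlr9het. NK cell markers summed to 6.45 to 14.3 and 17.0 to 24.87 CPM in Tlr997. In the other responses both sums overlapped between conditions. With CpG, 2 of 7 tested T cell genes were called higher in each genotype, and 3 (Tlr9het) and 5 (Tlr997) of 7 NK cell genes. With CL097 it was 1 of 4 NK cell genes and no T cell gene. None was called lower. The part of these cell types in the members' responses was not tested. In such bulk samples, fewer cells of a type and less RNA per cell cannot be told apart. Tlr7, deleted in the CpG experiment, lay between 2.68 and 4.28 log2 CPM in Tlr9het, between 4.81 and 5.36 in Tlr997, which carries Tlr7 sequence for its TIR domain, and between 6.61 and 7.82 in Tlr779. Tlr9 lay between 6.93 and 8.08 log2 CPM in all libraries, including those labelled Tlr9-/-, whose Tlr779 allele carries Tlr9 sequence for its TIR domain, so its level alone does not settle the genotype labels. Tlr9het cells, which lack Tlr7, did respond to the TLR9 agonist, with 29.7% of genes called higher and 28.2% lower. The labels do not say which animal each replicate number stands for, so the p-values given here measure the spread between these samples. All 9 members passed the filter on low values in both experiments, but Gbp10 passed it in the CL097 experiment only through the stimulated libraries.

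Before stimulation, Gbp9 had the highest value per length of transcript and Gbp10 the lowest. Other transcripts hold 86.0% of the 75-base stretches of Gbp6 and 75.5% of those of Gbp10. If reads that match several genes were dropped, the levels and ranks of Gbp6 and Gbp10 are understated. In unstimulated Tlr9het cells, levels per kilobase of transcript (log2 CPM per kb) were 5.31 ± 0.22 for Gbp9, 4.51 ± 0.13 for Gbp3, 3.92 ± 0.20 for Gbp4, 2.93 ± 0.30 for Gbp6, 1.80 ± 0.17 for Gbp2, 1.09 ± 0.11 for Gbp5, 0.34 ± 0.17 for Gbp7, -0.02 ± 0.36 for Gbp8 and -1.48 ± 0.27 for Gbp10 (SD, n = 3 each). In that order the libraries of neighbouring members did not overlap, except those of Gbp7 and Gbp8. The same 3 members led in unstimulated Tlr997, with Gbp9 at 5.17 ± 0.26, Gbp3 at 4.62 ± 0.08 and Gbp4 at 3.80 ± 0.39, and in unstimulated Tlr779, with 5.13 ± 0.27, 4.64 ± 0.36 and 3.42 ± 0.39 log2 CPM per kb (SD, n = 3 each). In unstimulated Tlr779 the libraries of Gbp9 and Gbp3 overlapped. The 2 other family genes in the files were lower still. Gbp1, an older symbol of Gbp2b, lay between -4.76 and -0.09 log2 CPM and Gbp11 between -5.27 and -2.15, and neither passed the filter.

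CpG changed the make-up of the family more than its summed level. In Tlr9het the 9 members summed to 94.1 ± 6.3 CPM per kb without and 99.3 ± 10.97 with CpG, and in Tlr997 to 92.2 ± 8.6 without and 111.8 ± 11.5 with CpG (SD, n = 3 each). The libraries of the 2 conditions overlapped in Tlr9het and were apart in Tlr997. The share of Gbp9 in that sum was 42.5 ± 3.9% without and 11.3 ± 0.7% with CpG in Tlr9het, and the share of Gbp5 was 2.28 ± 0.31% without and 21.8 ± 0.9% with CpG (SD, n = 3 each). No library of one condition overlapped the other for either share. Gbp3 became the most abundant member with CpG, at 4.90 ± 0.07 log2 CPM per kb in Tlr9het and, in Tlr997, 5.05 ± 0.09, followed by Gbp5 at 4.43 ± 0.19 and 4.26 ± 0.34 (SD, n = 3 each). With CL097 in Tlr779, the share of Gbp9 was 27.3 ± 4.5% against 42.0 ± 8.1% without, and that of Gbp5 was 7.72 ± 1.27% against 2.08 ± 0.25% (SD, n = 3 each). There Gbp9 remained first in the order, at 4.79 ± 0.46 log2 CPM per kb, with libraries that overlapped those of Gbp3 at 4.74 ± 0.27. These shares rest on 1 transcript length per gene and were not tested. They carry the uncertainty in the levels of Gbp6 and Gbp10 and in how reads divide between gene models that overlap.

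**Figure D2:**
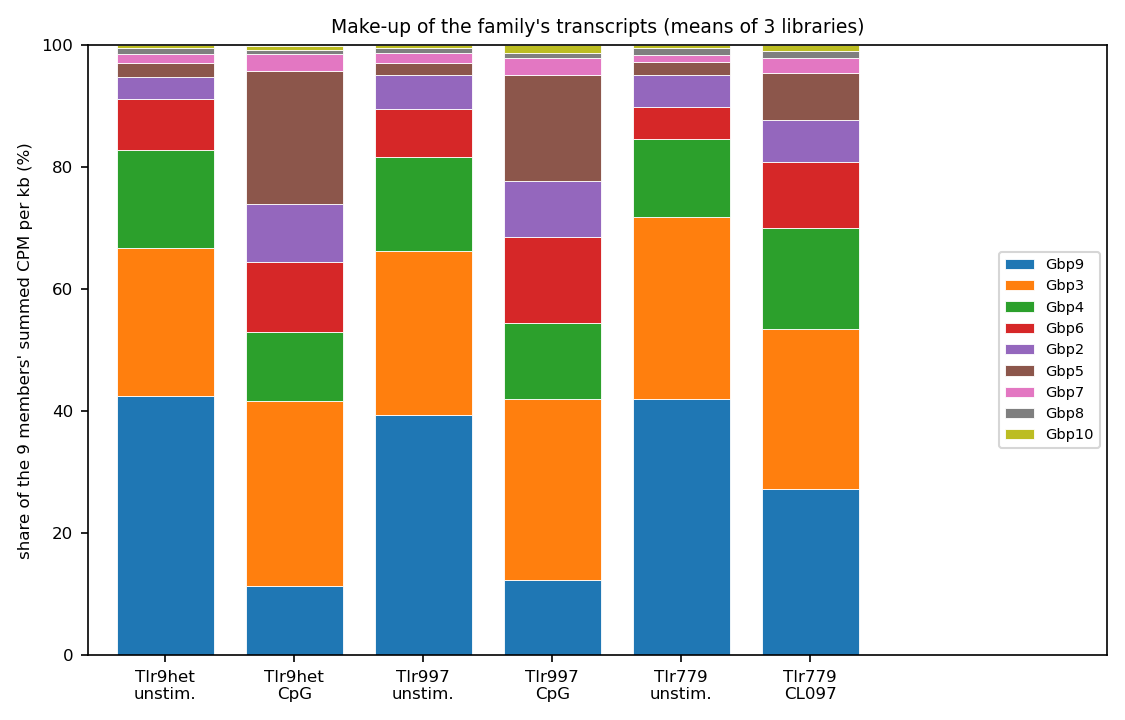
Stacked bars give each member's mean share, in percent, of the 9 members' summed CPM per kb of transcript in the 6 groups (3 libraries each). Gbp9 holds 42.5% of the sum in unstimulated and 11.3% in CpG-stimulated Tlr9het cells, while Gbp5 goes from 2.28% to 21.8%.

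To find the members that CpG changed in control cells, stimulated and unstimulated Tlr9het libraries were compared with limma, where a gene was called if its p, adjusted by the Benjamini-Hochberg method, was under 0.05 and its log2 fold change exceeded 0.5 in size. CpG raised 4 members, Gbp5, Gbp2, Gbp7 and Gbp6, and lowered Gbp9. Of all 11494 genes tested, 29.7% were called higher and 28.2% lower, so the number of members called is to be read against a response of most of the transcriptome. The median log2 fold change over the 9 members was 0.57, against 0.04 over all genes, and the libraries of 6 of the 9 members did not overlap between the conditions, a smaller proportion than the 80.1% of all genes without overlap.

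Gbp5, which promotes assembly of the NLRP3 inflammasome, was at 2.65, 2.63 and 2.83 log2 CPM in unstimulated Tlr9het libraries and at 5.91, 5.96 and 6.26 with CpG. Every stimulated library lay above every unstimulated one, and Gbp5 rose by 3.34 on the log2 scale (SE 0.21, limma adjusted p 8.6e-09), a 10.1-fold increase. Gbp2, a prenylated member that is recruited to vacuoles of intracellular parasites, was at 3.33, 3.02 and 3.06 without and 4.35, 4.63 and 4.64 with CpG, and its libraries were likewise apart. It rose by 1.41 (SE 0.22, limma adjusted p 5.6e-05). Gbp7, which lies next to Gbp5, was at 2.79, 3.02 and 2.69 without and 3.85, 3.95 and 4.15 with CpG, again without overlap, and rose by 1.15 (SE 0.18, limma adjusted p 7.6e-05). The last member of the chromosome 3 cluster, Gbp3, was at 5.998, 5.78 and 6.01 without and 6.36, 6.25 and 6.38 with CpG. Its libraries did not overlap, but its change of 0.40 (limma adjusted p 4.7e-04) stayed under the fold threshold.

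On chromosome 5 the members went in different directions. Gbp9 was at 7.62, 7.51 and 7.199 log2 CPM without and at 5.62, 5.51 and 5.69 with CpG, a drop in every library, and fell by 1.84 on the log2 scale (SE 0.12, limma adjusted p 1.5e-08), a 3.57-fold decrease. Its neighbour Gbp4 was at 6.20, 6.23 and 5.87 without and 5.61, 5.46 and 5.92 with CpG, with overlap between the conditions and a log2 fold change of -0.44 (limma adjusted p 0.037) that stayed under the fold threshold. Without replicate 3 of either condition, which hold the lowest unstimulated and the highest stimulated value, Gbp4 was called lower, at -0.55 without the unstimulated and -0.56 without the stimulated library. Then 2 members instead of 1 were called lower. Gbp6 was at 4.19, 4.08 and 4.65 without and 4.71, 4.52 and 5.40 with CpG, so that its highest unstimulated library exceeded the lowest stimulated one. Its rise of 0.57 lay at the edge of the call (SE 0.24, limma adjusted p 0.0497) and was lost without unstimulated replicate 1 (0.51) or 2 (0.46) and without CpG replicate 1 (0.65) or 3 (0.31). Without the filter on low values it was also lost (limma adjusted p 0.19). Gbp10 was at 0.18, 0.18 and 0.65 without and 1.396, 0.76 and 1.48 with CpG. Its libraries did not overlap, but it did not pass, at a log2 fold change of 0.87 and a limma adjusted p of 0.089 (SE 0.44). It was called when only the Tlr9het libraries were fitted (adjusted p 0.020) and with array quality weights (0.85, adjusted p 0.027). Gbp8 was at 1.64, 0.91 and 1.29 without and 1.02, 0.73 and 0.43 with CpG. It overlapped and did not pass (log2 fold change -0.55, SE 0.44, limma adjusted p 0.28).

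**Figure D3:**
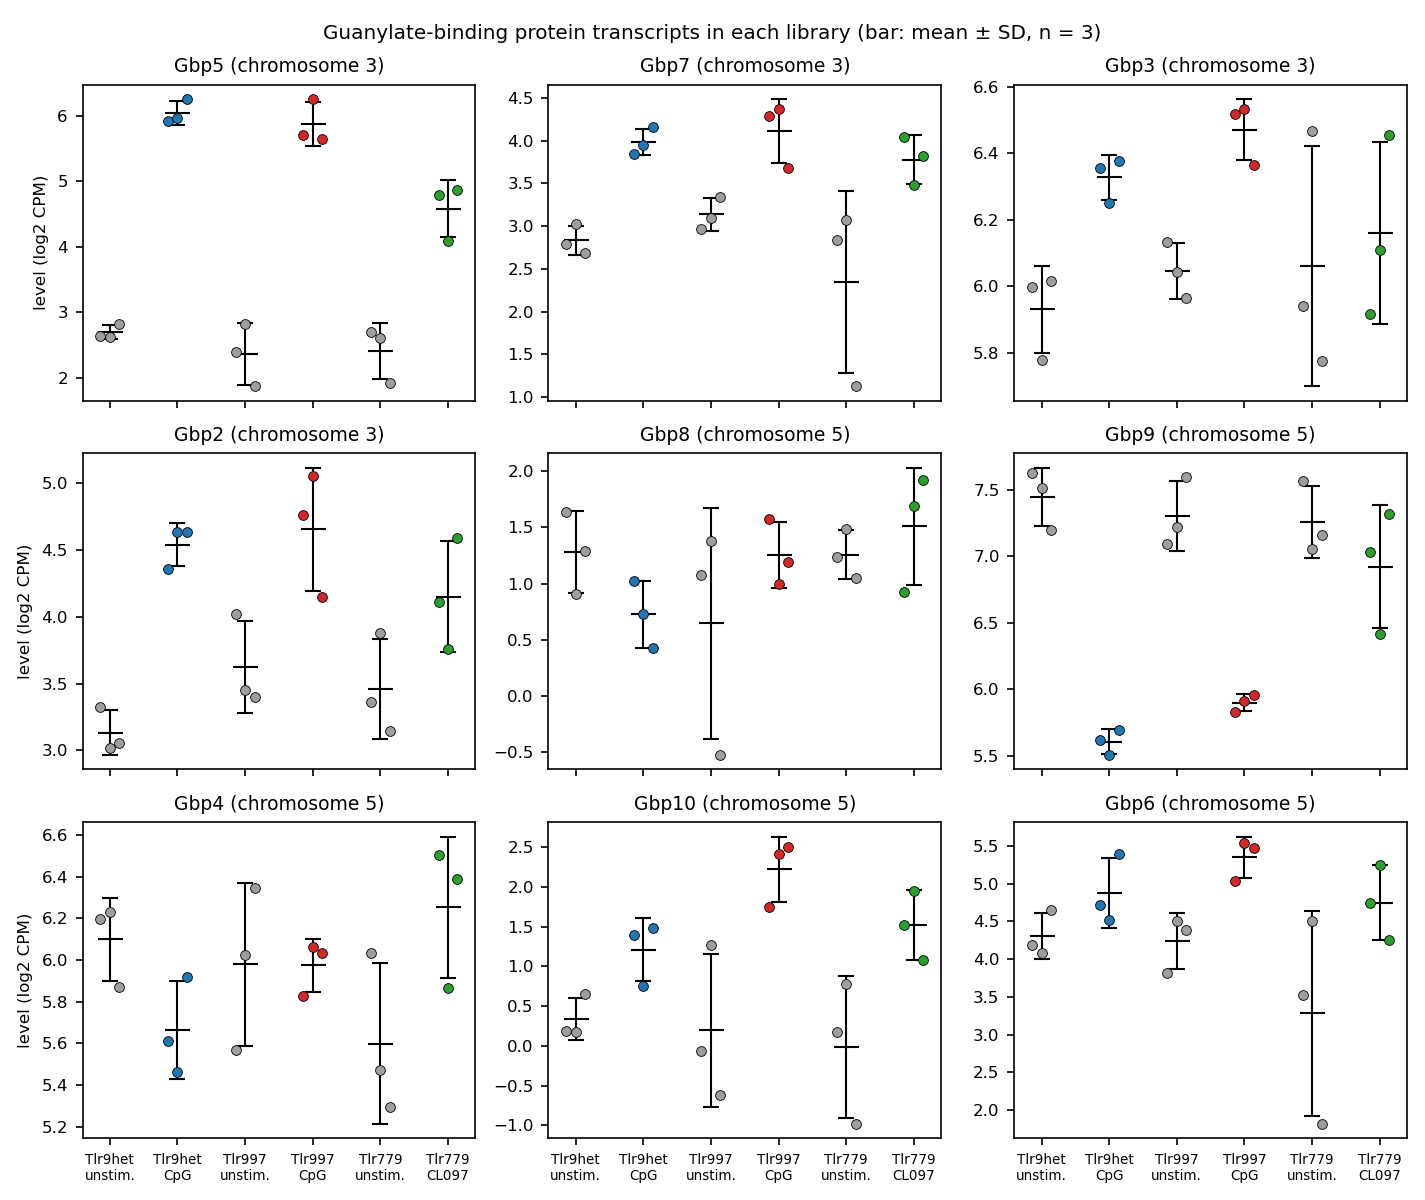
Level (log2 CPM) of each of the 9 transcripts in every library of the 6 groups, with points for libraries and bars for the mean ± SD (n = 3); y axes differ between panels. Gbp5 lies between 5.65 and 6.26 in the CpG-stimulated libraries and under 2.83 in all unstimulated ones, whereas Gbp9 falls from above 7.05 to under 5.96 with CpG.

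The same comparison in Tlr997 asked which members responded when the same ligand signaled through the TIR domain of TLR7. CpG raised 5 members, Gbp5, Gbp10, Gbp6, Gbp2 and Gbp7, and lowered Gbp9, and none of these 6 calls was lost when any of the 6 libraries was left out. Among all genes 29.6% were called higher and 26.0% lower. The members' median log2 fold change was 0.98, against 0.07 over all genes, and 7 of the 9 had no overlap between conditions, near the 71.2% of all genes without overlap. Gbp5 was at 2.39, 2.82 and 1.88 log2 CPM without and 5.71, 6.26 and 5.65 with CpG, well apart, and rose by 3.51 (SE 0.21, limma adjusted p 6.3e-09). Gbp2 was at 4.02, 3.45 and 3.40 without and 4.76, 5.05 and 4.15 with CpG, close but without overlap, and rose by 1.03 (SE 0.22, limma adjusted p 8.3e-04). Gbp7 was at 2.97, 3.10 and 3.35 without and 4.29, 4.37 and 3.68 with CpG and rose by 0.98 (SE 0.18, limma adjusted p 3.4e-04). For Gbp3 the change was again small and regular, from between 5.96 and 6.13 to between 6.37 and 6.53, which at 0.43 (SE 0.08, limma adjusted p 2.9e-04) was under the fold threshold.

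Both members of the near-identical pair on chromosome 5 were called in Tlr997. Gbp6 was at 3.81, 4.51 and 4.39 log2 CPM without and 5.03, 5.54 and 5.47 with CpG, with all stimulated libraries above all others, and rose by 1.11 (SE 0.24, limma adjusted p 0.0011). Gbp10 was at -0.06, 1.26 and -0.61 without and 1.75, 2.42 and 2.50 with CpG and rose by 2.03 (SE 0.44, limma adjusted p 9.8e-04), from a spread of almost 2 log2 units among the unstimulated libraries. Gbp9 was at 7.096, 7.22 and 7.60 without and 5.83, 5.92 and 5.96 with CpG, apart in every library, and fell by 1.41 on the log2 scale (SE 0.12, limma adjusted p 2.7e-07). Gbp4 was between 5.57 and 6.35 without and between 5.83 and 6.06 with CpG, and its log2 fold change of -0.005 had a 95% interval from -0.38 to 0.37. Gbp8 was at 1.08, 1.38 and -0.52 without and 1.57, 0.99 and 1.19 with CpG. Its low value in unstimulated replicate 3 widened the interval, and it did not pass (log2 fold change 0.61, SE 0.44, limma adjusted p 0.23).

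**Figure D4:**
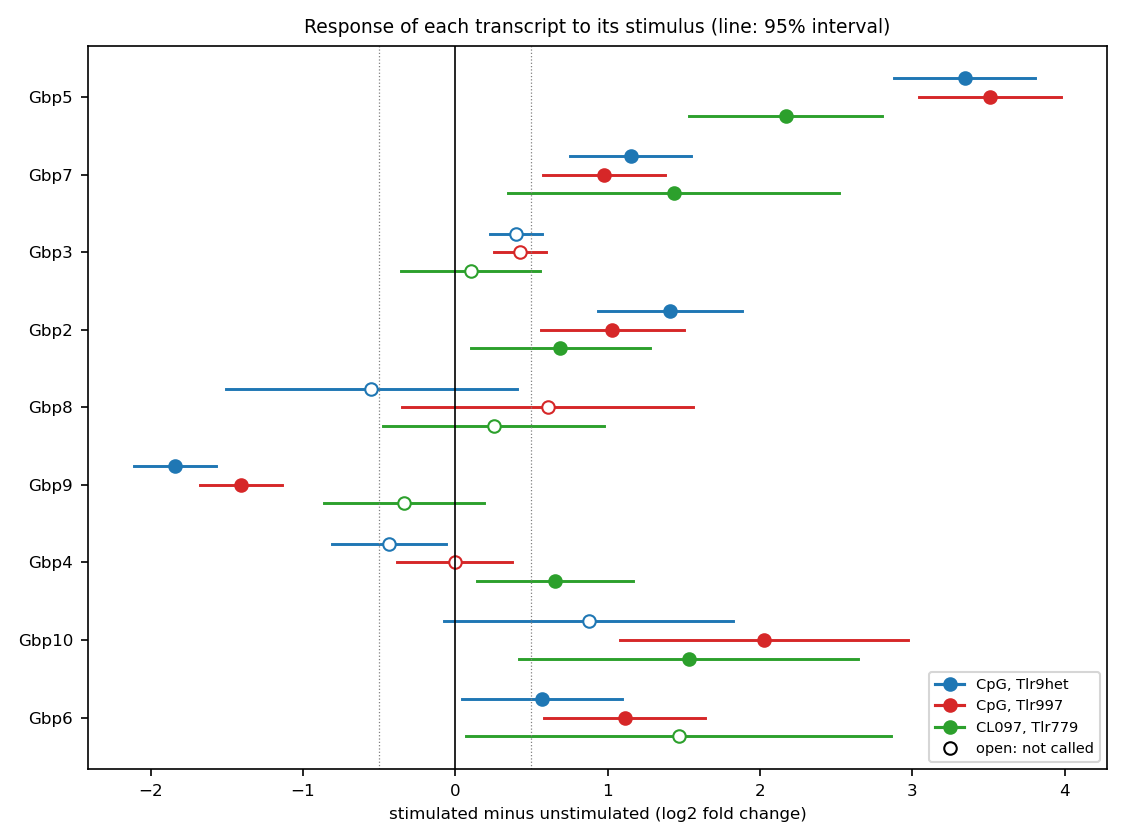
Log2 fold change (stimulated minus unstimulated) of each transcript for CpG in Tlr9het, CpG in Tlr997 and CL097 in Tlr779, with 95% intervals from limma; filled points passed the adjusted p and fold thresholds, and dotted lines mark a log2 fold change of 0.5 in either direction. Gbp5 responded most in all 3, at 3.34, 3.51 and 2.17, and Gbp9 lies at -1.84 and -1.41 with CpG.

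Whether the TIR domain set the level of the family without a ligand was tested in the unstimulated libraries, where Tlr997 was compared with Tlr9het. No member was called in either direction by limma, against 0.0174% of all genes called higher and 0% called lower, and 1 of the 9 had an unadjusted p under 0.05, Gbp2, about the share of all genes, 10.8%. Gbp2 was at 3.40 to 4.02 log2 CPM in Tlr997 and 3.02 to 3.33 in Tlr9het, without overlap (as for 13.6% of all genes), and differed by 0.49 (SE 0.22, limma p 0.043, adjusted p 0.44). The largest difference in the other direction was that of Gbp8, at -0.63 with a 95% interval from -1.59 to 0.32. For Gbp9 the difference was -0.14 with an interval from -0.41 to 0.13, and for Gbp3 it was 0.12 with an interval from -0.05 to 0.29. The members' median difference was -0.12, against -0.01 over all genes.

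With CpG, 8 of the 9 members had a higher mean in Tlr997, and the median difference from Tlr9het was 0.29 against 0.0005 over all genes. The members do not count as independent, since Gbp6 and Gbp10 share most of their sequence. None passed the limma test after adjustment, while 1.25% of all genes were called higher and 1.47% lower. At an unadjusted p under 0.05 there were 2 of the 9, Gbp9 and Gbp10 on chromosome 5, close to the 19.0% of all genes. These 2 were also the members without overlap, which 30.0% of all genes showed. Gbp9, which CpG lowered in each genotype, was at 5.83, 5.92 and 5.96 log2 CPM in Tlr997 and 5.62, 5.51 and 5.69 in Tlr9het. Every Tlr997 library lay above every Tlr9het library, by a mean of 0.29 (SE 0.12, limma p 0.036, adjusted p 0.22). Gbp10 was at 1.75, 2.42 and 2.50 in Tlr997 and 1.396, 0.76 and 1.48 in Tlr9het, also without overlap, and differed by 1.01 (SE 0.44, limma p 0.039, adjusted p 0.23). Its near-identical partner Gbp6 differed by 0.47 with a 95% interval from -0.05 to 1.00. The member with the largest response to CpG, Gbp5, was the only one lower in Tlr997, at -0.17 with an interval from -0.64 to 0.29. In these libraries the 8 B cell markers summed to between 3083 and 3833 CPM in Tlr997 and between 1992 and 2126 CPM in Tlr9het, and 4 of the 8 were called higher in Tlr997. The part of this difference in the members' values was not tested.

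Because stimulated levels also carry any difference at baseline, the responses to CpG themselves were compared (Tlr997 minus Tlr9het, an interaction term). It uses the libraries of the comparisons above and is not independent of them. No member was called by limma, against 0.687% of all genes called higher and 0.853% lower, and 1 of the 9 had an unadjusted p under 0.05, against 16.0% of all genes. This was Gbp9, with a fall of 1.84 in Tlr9het (log2 fold change -1.84) and one of 1.41 in Tlr997 (-1.41), and the responses differed by 0.43 (SE 0.18, limma p 0.029, adjusted p 0.25). Without unstimulated Tlr997 replicate 3 the difference was 0.58 with an adjusted p of 0.045, so that this library decided the call. For Gbp5 the responses differed by 0.17 with a 95% interval from -0.49 to 0.82, for Gbp2 by -0.38 (-1.04 to 0.29), for Gbp7 by -0.17 (-0.74 to 0.39) and for Gbp3 by 0.03 (-0.21 to 0.27). The members of chromosome 5 had positive differences throughout, at 1.16 for Gbp8, 1.15 for Gbp10, 0.54 for Gbp6, 0.43 for Gbp9 and 0.43 for Gbp4, of which the intervals of Gbp8, Gbp10, Gbp6 and Gbp4 included 0. With the replicate number as a block, Gbp6 was called (limma adjusted p 0.041), although the numbers do not pair the Tlr997 libraries. The median over the 9 was 0.43, against 0.01 over all genes.

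**Figure D5:**
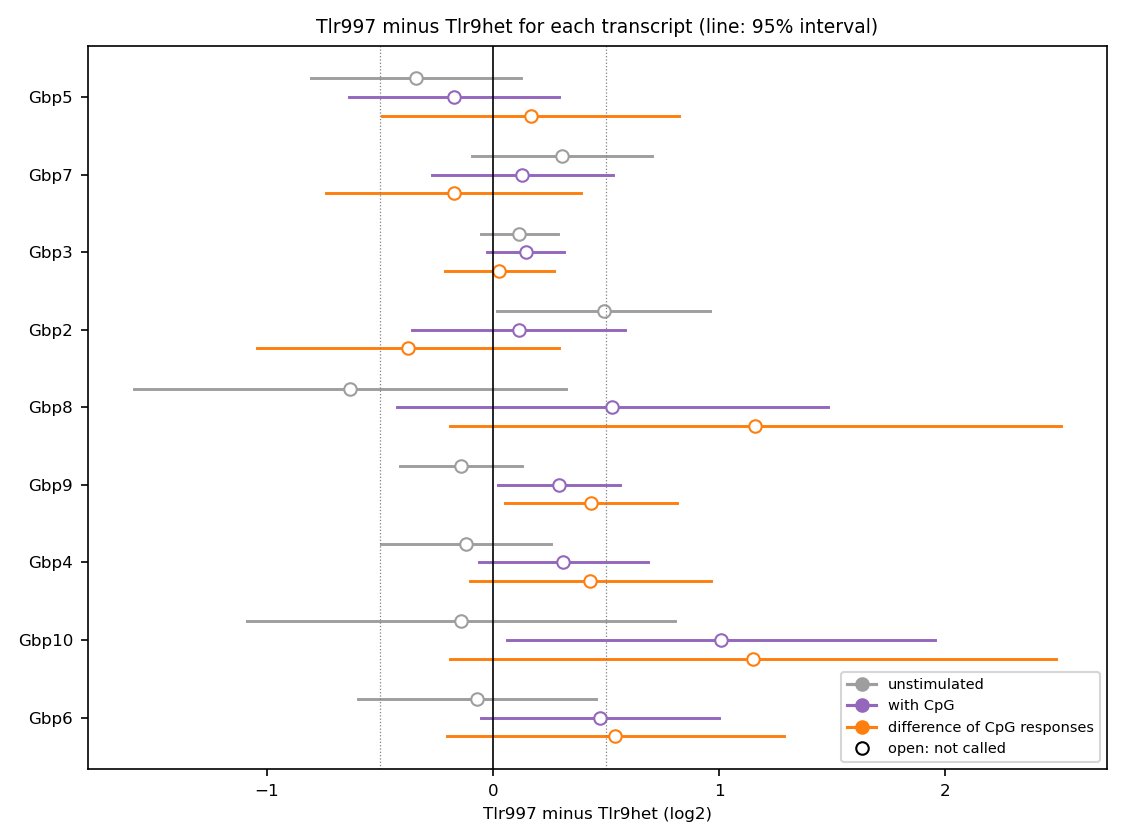
Difference between Tlr997 and Tlr9het (log2) for each transcript in unstimulated cells, in CpG-stimulated cells and for the CpG response itself, with 95% intervals from limma. All points are open, since no member passed the adjusted threshold in this fit without a block; the intervals of the difference of responses are narrowest for Gbp3 (-0.21 to 0.27) and widest for Gbp8 (-0.19 to 2.51).

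How the family responded when a TLR7 agonist signaled through the TIR domain of TLR9 was tested in the 6 Tlr779 libraries. CL097 raised 5 members, Gbp5, Gbp10, Gbp7, Gbp2 and Gbp4, and lowered none, while 22.7% of 11082 genes were called higher and 23.6% lower. The members' median log2 fold change was 0.69, against -0.02 over all genes, and the libraries of 3 of the 9 did not overlap, a smaller proportion than the 67.8% of all genes without overlap. Gbp5 was at 2.70, 2.61 and 1.93 log2 CPM without and 4.79, 4.09 and 4.87 with CL097. All stimulated libraries lay above all others, and it rose by 2.17 (SE 0.27, limma adjusted p 2.5e-04), 4.50-fold. Gbp7 was at 2.83, 3.08 and 1.13 without and 4.04, 3.48 and 3.81 with CL097 and rose by 1.43 (SE 0.47, limma adjusted p 0.029). Gbp10 was at 0.17, 0.77 and -0.98 without and 1.52, 1.96 and 1.08 with CL097 and rose by 1.53 (SE 0.48, limma adjusted p 0.024). Without the CL097 libraries, Gbp10 would not have passed the filter on low values in this experiment. A rise was thus favoured for it in advance, and its call among the 5 says little about direction.

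Smaller increases were seen for Gbp2 and Gbp4, with overlapping libraries. Gbp2 was at 3.36, 3.88 and 3.15 log2 CPM without and 4.11, 3.76 and 4.59 with CL097 and rose by 0.69 (SE 0.25, limma adjusted p 0.044). By replicate number, it was 0.75 and 1.44 higher with CL097 for numbers 1 and 3 and 0.12 lower for number 2 (-0.12). Gbp4 was at 6.03, 5.47 and 5.29 without and 6.503, 5.86 and 6.39 with CL097 and rose by 0.65 (SE 0.22, limma adjusted p 0.032), and was higher with CL097 for each number. Gbp6 was at 3.53, 4.50 and 1.82 without and 4.74, 5.25 and 4.26 with CL097, and its log2 fold change of 1.47 did not pass (SE 0.60, limma adjusted p 0.065). In the fit that pairs the Tlr779 libraries by replicate number (block), Gbp6 was called (limma adjusted p 0.0043) and Gbp2 was not (0.059). Gbp9 was at 7.56, 7.05 and 7.16 without and 7.03, 6.41 and 7.32 with CL097, with overlap and a log2 fold change of -0.34 whose 95% interval ran from -0.86 to 0.19. Gbp3 and Gbp8 had log2 fold changes of 0.10 (-0.35 to 0.56) and 0.25 (-0.47 to 0.98).

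Apart from that of Gbp5, the calls with CL097 depended on single libraries. Unstimulated Tlr779 replicate 3 had the lowest mean over the 9 members, 2.92 log2 CPM against 3.71 and 3.92 in the other two, and was lowest of its group for Gbp2, Gbp3, Gbp4, Gbp5, Gbp6, Gbp7, Gbp8 and Gbp10. Its macrophage and monocyte markers summed to 454 CPM, against 231 and 187 CPM in the other two, and whether this bears on the members was not tested. Gbp5 was the only member called with CL097 whichever library was left out. Of the 5 members called higher, 1 was left without CL097 replicate 1, 4 without CL097 replicate 2, 2 without CL097 replicate 3, 3 without unstimulated replicate 1, 2 without unstimulated replicate 3, and without unstimulated replicate 2 the number was 5, with Gbp6 (2.08) gained and Gbp4 (0.59) lost. Without the filter on low values Gbp5 alone was called, and the other 4 had adjusted p-values from 0.14 (Gbp10) to 0.22 (Gbp2). Gbp7 lost its call without CL097 replicate 1 (1.30) or 3 (1.41). Gbp10 lost it without CL097 replicate 1 (1.53) or 2 (1.31) or unstimulated replicate 1 (1.62) or 3 (1.05). Gbp2 lost it without CL097 replicate 1 (0.71) or 3 (0.47) or unstimulated replicate 1 (0.64) or 3 (0.53), and Gbp4 without CL097 replicate 1 (0.53) or 3 (0.59) or unstimulated replicate 3 (0.50). Arm, sex, genotype and agonist changed together between the CpG and CL097 experiments and cannot be told apart, so the responses stand side by side without a test.

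Across the 12 libraries of the CpG experiment, 6 members followed a common course, with r from 0.77 for Gbp2 to 0.91 for Gbp3 against the mean of the other 8 centred members. Gbp9 ran against it (r = -0.90), and Gbp4 (-0.29) and Gbp8 (0.11) followed it little. Gbp9 and Gbp5 were the most opposed pair, with r = -0.97. Among 11485 genes outside the 9 members, those most like the mean of the members by Pearson's r were Rabepk (0.98), Med17 (0.98), Spag7 (0.97), Lgals3bp (0.97), Gphn (0.97), Bid (0.97), Zfp800 (0.97), Timd2 (0.97), Melk (0.97) and Klhdc2 (0.97). In the 6 Tlr779 libraries, which were not used to choose them, the r of these 10 with the members' mean lay between 0.53 for Klhdc2 and 0.99 for Zfp800. These correlations are descriptions over libraries that share the 4 groups of the design.

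Genes that act above the GBPs are given as counts of calls, to be read against all genes. With CpG 29.7% of all genes were called higher and 28.2% lower in Tlr9het, and 29.6% and 26.0% in Tlr997. For CL097 in Tlr779 the shares were 22.7% and 23.6%. Of 7 tested interferon ligands and inducers, 5 were called higher and none lower with CpG in each genotype. Without the CpG-stimulated libraries, Ifng, Ifnb1 and Ifna2 would not have passed the filter on low values. A rise was thus favoured for them in advance, and the count says little about direction. Ebi3, a subunit of IL-27 and IL-35, was among those called and rose by 4.40 in Tlr9het and 3.68 in Tlr997. The interferons themselves, named here after their values were seen, were low. Ifng was at -0.45 ± 0.20 log2 CPM without and 1.93 ± 0.78 with CpG in Tlr9het and at -0.81 ± 0.96 and 0.78 ± 0.49 in Tlr997, and Ifnb1 was at -4.12 ± 0.66 and 1.77 ± 0.35 in Tlr9het and at -4.45 ± 0.64 and 0.45 ± 0.72 in Tlr997 (SD, n = 3 each). Among 10 receptors and signal transducers, 7 were called lower in Tlr9het and 6 in Tlr997 with CpG and none higher. Tyk2, a kinase bound to interferon receptors, fell by 1.70 in Tlr9het and by 1.401 in Tlr997. Of 7 interferon regulatory factors, 2 were higher and 3 lower in Tlr9het and 2 higher and 2 lower in Tlr997, with Irf1, an activator of GBP genes, lower in both (log2 fold changes of -1.09 and -0.68). The inhibitors of this signaling moved in both directions, with 4 of 8 higher and 2 lower in Tlr9het and 5 higher and 2 lower in Tlr997. Socs3 rose by 5.54 and 4.27. With CL097 in Tlr779, 2 of 10 receptors and transducers were called lower, Tyk2 (-1.02) and Ifnar1 (-0.81). Of the 7 regulatory factors 2 were higher and 2 lower, and of the 8 inhibitors 5 were higher and 2 lower. Of 4 tested ligands 2 were higher, Il12b (10.59) and Ebi3 (3.43), and when any CL097 library was left out only Ebi3 was called, because Il12b then no longer passed the filter. Il12b lay between -5.03 and -1.96 log2 CPM without stimulus and passed through the CL097 libraries alone, so the filter fixed the direction of its call.

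Other interferon-induced GTPases, which include the immunity-related GTPases and the antiviral Mx proteins, were set beside the GBPs. In Tlr9het CpG raised 2 of 12 and lowered 1, against 29.7% and 28.2% of all genes, and their median log2 fold change was 0.05. Without unstimulated replicate 3 the number lower was 2, and without CpG replicate 3 the numbers were 1 higher and 2 lower. In Tlr997 9 of 12 were called higher and 1 lower, against 29.6% and 26.0% of all genes, with a median of 0.77. With CL097 in Tlr779 9 of 11 were higher and none lower, against 22.7% and 23.6% of all genes, with a median of 1.26. Without the CL097 libraries, Tgtp1 and Iigp1 would not have passed the filter on low values, so a rise was favoured for them in advance. Mx1, an antiviral GTPase, rose by 2.35 with CL097. Compared with CpG-stimulated Tlr9het cells, 7 of 12 were called higher in stimulated Tlr997 cells and none lower, with a median of 0.83. Among all genes 1.25% were called higher there and 1.47% lower, and no GBP member was called. The count of 7 became 3 without Tlr997 replicate 1 and 2 without Tlr997 replicate 2, Tlr9het replicate 1 or Tlr9het replicate 2, and 2 without the filter on low values. The call of Ifi47 (1.11) in this comparison was kept when any library was left out. These GTPases contribute 1 call to the test of the difference of responses, 9930111J21Rik1 (1.84), where 0.687% of all genes were called higher.

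Genes that act with or after the GBPs moved in both directions. Their counts are to be read against all genes, of which 29.7% were called higher and 28.2% lower with CpG in Tlr9het. These shares were 29.6% and 26.0% in Tlr997, and 22.7% and 23.6% with CL097. Of 6 enzymes for prenylation of CaaX proteins, 2 were called higher with CpG in both genotypes, Fntb, the beta subunit of farnesyltransferase, by 1.55 in Tlr9het and 1.25 in Tlr997, and Rce1, a protease that trims prenylated proteins, by 0.78 and 0.90. With CL097 Fntb was higher by 0.94 and Fnta lower (-0.54), and Fnta lost its call without unstimulated replicate 3 (-0.48). Of 11 genes for the conjugation of ubiquitin-like proteins that places GBPs on vacuoles, 1 was called higher and 3 lower in Tlr9het, 4 lower in Tlr997 and 4 lower with CL097. The single higher call was lost without Tlr9het unstimulated replicate 2 or CpG replicate 3. Gabarap was among the lower genes in all 3, with log2 fold changes of -1.08, -1.22 and -0.64. Of 10 inflammasome and pyroptosis genes, 3 were higher and 3 lower in Tlr9het, 4 higher and 2 lower in Tlr997 and 3 higher and 2 lower with CL097. Il1b rose by 3.66, 3.56 and 4.58, and Nlrc4, a sensor of bacterial flagellin through its NAIP partners, fell by 1.98, 1.70 and 1.24.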

How the data were processed

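RNA sequencing libraries were available for 18 samples in 6 groups of 3. Per the labels and the study's methods, the authors prepared stranded mRNA libraries and sequenced paired ends. The submitters' processing notes name FastQC 0.11.7, Trim Galore 0.6.5, STAR 2.6.1a, featureCounts of Subread 2.0.1, limma and the build mm10. The gene annotation and the treatment of reads with several matches are not given in the sources used here. The deposited values were log2 CPM after quantile normalization and voom, which the authors applied, with no counts. Since voom adds 0.5 counts before the logarithm, fold changes of weakly expressed genes are understated, and nothing further was added here. The depth of the libraries is unknown.

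The values also bear on a possible unstated adjustment by replicate number. In all 18 libraries 6209 genes lay below -4, and 6008 of these had a single value in the libraries of each number, which for 524 was not the same for every number. If such an adjustment was made, a fit without a block does not count its degrees of freedom.

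Genes over 0 log2 CPM in at least 3 fitted libraries were tested with limma 3.58.1 in R 4.3.3 with a variance trend, using the 12 libraries of the CpG experiment or the 6 Tlr779 libraries. Scripts were tested on simulated data. Thresholds were those of the study. Members and gene lists were chosen with earlier results of these data known. All 9 members are named. From each pathway list, genes were named among the 3 called genes of largest change with a mean over 2 log2 CPM, and not all of these are given. The 10 genes most like the members had the highest r with their mean. Of the libraries without and with stimulus, deviations from group means correlated by number at 0.51, 0.29 and 0.51 in Tlr9het and 0.25, 0.49 and 0.33 in Tlr779, so those numbers were taken to pair. In Tlr997 they were 0.37, 0.083 and 0.025, and those numbers were not taken to pair. The main fits used group means without a block in all groups, so they leave out the pairing in Tlr9het and Tlr779. Fits with a block are given as alternatives. Transcript lengths came from the longest GENCODE transcript matched to RefSeq, identities from edit distance over coding sequences.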

Additional observations from a re-analysis of the deposited data

Results flagged for a closer look

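No member passed the limma interaction test of the responses to CpG (Tlr997 minus Tlr9het). Among the genes of the pathway and marker lists, 8 did so with an adjusted p under 0.05. Il12b rose less in Tlr997 (-2.56), and the difference of Ifngr1, a chain of the interferon gamma receptor, was -0.93. That of 9930111J21Rik1, an interferon-induced GTPase, was 1.84, and that of the B cell marker Ms4a1 was 1.16. The calls of these 4 were kept when any of the 12 libraries was left out, whereas those of Il12b and 9930111J21Rik1 were lost without the filter on low values and with all 18 libraries in 1 model. Stat2 (0.79) lost its call without Tlr997 CpG replicate 2 (0.74), Tlr9het unstimulated replicate 1 (0.72) or 2 (0.74), or Tlr9het CpG replicate 1 (0.77), 2 (0.78) or 3 (0.82). Irf5 (0.51) lost it without Tlr997 unstimulated replicate 3 (0.46), Tlr997 CpG replicate 1 (0.45), Tlr9het unstimulated replicate 1 (0.49) or 3 (0.50), or Tlr9het CpG replicate 2 (0.48). Cd79b (1.14) lost it without Tlr9het unstimulated replicate 1 (1.10) or Tlr9het CpG replicate 1 (1.09), 2 (1.17) or 3 (1.17). Socs1 (-1.24) kept its call only without Tlr997 unstimulated replicate 3, Tlr997 CpG replicate 2 or Tlr9het unstimulated replicate 3, among the 12 libraries. With 3 libraries per group, no group was tested for libraries far from the others.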

How the results depend on the processing

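Of 873 values recomputed for the members under the alternatives, 801 kept direction and side of the thresholds, 34 lost a call, 15 gained one and 23 changed sign, all of the last without a call. Where no cause is named, the cause was not tested. With CpG in Tlr9het, 2 members were called lower with the adjusted p alone and with array quality weights, and leaving out libraries gave 1 to 2 lower and 3 to 4 higher. In Tlr997 it gave 5 higher and 1 lower each time. With array quality weights, 1 member was called higher between the CpG-stimulated genotypes (Gbp10) and 1 for the difference of responses (Gbp9), where leaving out libraries gave 0 to 1. With CL097 the number called higher was 1 with no filter on low values, 3 with a fold threshold of 1 (by construction stricter), 2 with no variance trend, and 1 to 5 when libraries were left out. With the replicate number as a block, 1 member was called for the difference of responses, Gbp6 (0.54, adjusted p 0.041), and no other call changed beside those of Gbp2 and Gbp6 with CL097. In Tlr997 the numbers do not pair the libraries, and 1 of 3 was most like its own number. A block shared by all 12 libraries, chosen after the data were seen, was also run.

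Signs changed for these uncalled values. With array quality weights, Gbp4 with CpG in Tlr997 was 0.068, Gbp6 and Gbp10 between unstimulated genotypes were 0.10 and 0.52, and Gbp5 for the difference of responses was -0.050. Leaving out libraries gave -0.21 to 0.18 for Gbp4 with CpG in Tlr997. Between unstimulated genotypes it gave -0.30 to 0.086 for Gbp4, -0.21 to 0.14 for Gbp6 and -0.68 to 0.26 for Gbp10, and with CpG -0.085 to 0.37 for Gbp2. For the difference of responses it gave -0.015 to 0.10 for Gbp3, -0.076 to 0.40 for Gbp5 and -0.30 to 0.040 for Gbp7, and with CL097 -0.048 to 0.30 for Gbp3. For CL097, a fit of only the libraries compared is the fit reported. Members near 0 log2 CPM (Gbp8 and Gbp10) had the widest intervals with CpG, and differences within them were not detectable here.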
